A study of Mus musculus with 2 samples.

Results

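Aqp3 and Aqp5 are 2 aquaporin genes out of the 19465 genes counted at barcoded spots laid over mouse skin sections with the Visium spatial assay. They were taken by symbol, and both were found. They were chosen by their measured levels across sections and layers, so the levels are given as descriptions with no test. All sections come from female SKH-1 mice, a hairless stock, aged 10 to 12 weeks, with 1 section per group. The 9-cis HPR section is skin that was exposed to ultraviolet radiation (UVR) and given 9-cis HPR at 0.03%, a retinoid known here by its label only. The retinol section is UVR-exposed skin treated with 0.1% retinol, the alcohol form of vitamin A. The UVR section is exposed skin with no treatment named, and the control section is skin labelled normal. UVR and control shared 1 capture area and the treated pair shared another. For a treated section set against UVR, treatment and area therefore cannot be told apart. Which section of an area is the upper one was read from the image row, and the spot grid, read instead, exchanges the groups. The labels give no UVR dose or schedule, name no vehicle-treated group, and do not say how many animals gave the sections.

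Aquaporins are membrane channels that let water pass along osmotic gradients. AQP3 belongs to the aquaglyceroporins, which also carry glycerol. In epidermis it sits in the membranes of living keratinocytes, and mice that lack it have a drier outer layer with less glycerol. AQP5 is best known as the apical water channel of salivary, lacrimal and sweat glands. Mutations of human AQP5 cause a thickening of palm and sole skin, where the channel has been seen in the granular layer of the epidermis.

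Aqp3 (ENSMUSG00000028435) lies on the minus strand at chr4:41092724-41098183 in the GRCm38.p6 table, a gene of 5460 bases with Aqp7 44.5 kb away. Aqp5 (ENSMUSG00000044217) lies on the plus strand at chr15:99591028-99594829, 3802 bases long, between Aqp2 at 6.48 kb and Aqp6 at 3.64 kb. The 250 bases before each start, from RefSeq on GRCm38.p6, are shown because the genes differed in how they were spread over the epidermis. Capitals mark the hits of 4 motifs searched on both strands: TATAAA (the TATA box), AGGTCA and GGGTCA (spellings of the nuclear-receptor binding hexamer) and CACGTG (the E-box).
Aqp3, chr4:41098184-41098433, minus strand: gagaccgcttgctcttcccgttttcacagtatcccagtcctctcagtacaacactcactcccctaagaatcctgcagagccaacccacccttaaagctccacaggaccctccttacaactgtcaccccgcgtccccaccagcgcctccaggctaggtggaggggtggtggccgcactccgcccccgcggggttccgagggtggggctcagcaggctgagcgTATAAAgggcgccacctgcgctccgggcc
Aqp5, chr15:99590778-99591027, plus strand: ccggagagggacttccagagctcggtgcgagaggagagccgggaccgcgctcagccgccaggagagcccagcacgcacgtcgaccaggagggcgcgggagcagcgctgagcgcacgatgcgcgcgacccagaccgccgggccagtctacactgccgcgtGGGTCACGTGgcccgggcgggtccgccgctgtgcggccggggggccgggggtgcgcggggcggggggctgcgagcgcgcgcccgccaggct
The Aqp3 window holds TATAAA 29 bases before the start. The Aqp5 window holds GGGTCA 91 bases and CACGTG 87 bases before it, the pair overlapping. The Aqp5 window is richer in CpG, with 38 CpG and 78.4% G+C, against 14 CpG and 64.0% for Aqp3 and medians of 6 and 52.4% over 32851 promoters of the same length. Of those promoters, 12.4% hold TATAAA, 14.0% AGGTCA, 11.6% GGGTCA and 6.02% CACGTG. The matches describe letters only.

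Aqp3 gave 17575 unique molecular identifiers (UMIs, 1 for each captured probe molecule) over the kept spots of all sections, and Aqp5 gave 454. That is 96.4% and 2.49% of the UMIs of the 12 aquaporins on the panel. Counts of different genes also depend on their probes, so these shares are no comparison of levels. Whole-section depth was 1249928 UMIs over 644 spots with 9-cis HPR, 1414976 over 544 with retinol, 2558616 over 647 with UVR and 326095 over 339 in control. The median spot held 653, 982, 1641 and 527 UMIs in that order, so the control section was the shallowest. A level is the gene's UMIs in a set of spots, scaled to 1000000 UMIs of that set (CPM), with exact 95% intervals. Intervals cover counting error only, and the spread between animals is not measured. A spot covers several cells, so fewer cells of a type and less RNA per cell cannot be told apart.

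Epidermal layers were read from keratins. Basal-rich spots have more Krt5 plus Krt14 (keratins of the dividing layer) than Lor (loricrin, of the cornified envelope) and at least 1000 UMIs. Cornified-rich spots have Lor at or above that sum, which takes in 3, 5, 11 and 1 spots with no UMI of the 3 genes in 9-cis HPR, retinol, UVR and control. There were 177 basal-rich and 64 cornified-rich spots with 9-cis HPR, 206 and 63 with retinol, 334 and 68 with UVR, and 32 and 65 in control. The control section was alone in having fewer basal-rich than cornified-rich spots. The classes were not pure: the skeletal muscle genes Acta1, Ckm and Myh4 together exceeded those 3 genes in 12, 26, 86 and 10 of those basal-rich spots, and in 10, 22, 33 and 3 of the cornified-rich ones. Values are therefore also given for epidermal spots, where Krt5, Krt14 and Lor together exceed 3 muscle and 2 collagen genes. These numbered 164 and 53 with 9-cis HPR, 179 and 41 with retinol, 247 and 35 with UVR, and 20 and 62 in control. The cornified markers followed the class names in every section, and the basal markers less clearly in control. In epidermal spots the basal list summed to 389, 421, 562 and 891 CPM in basal-rich spots of 9-cis HPR, retinol, UVR and control, against 148, 67.9, 158 and 724 CPM in cornified-rich spots. Without the epidermal limit the control sums were 669 and 692 CPM. The list of cornified markers summed to 3263, 5038, 9430 and 8441 CPM in epidermal basal-rich spots of the same sections, against 25556, 28408, 37522 and 16945 CPM in their cornified-rich spots.

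**Figure D1:**
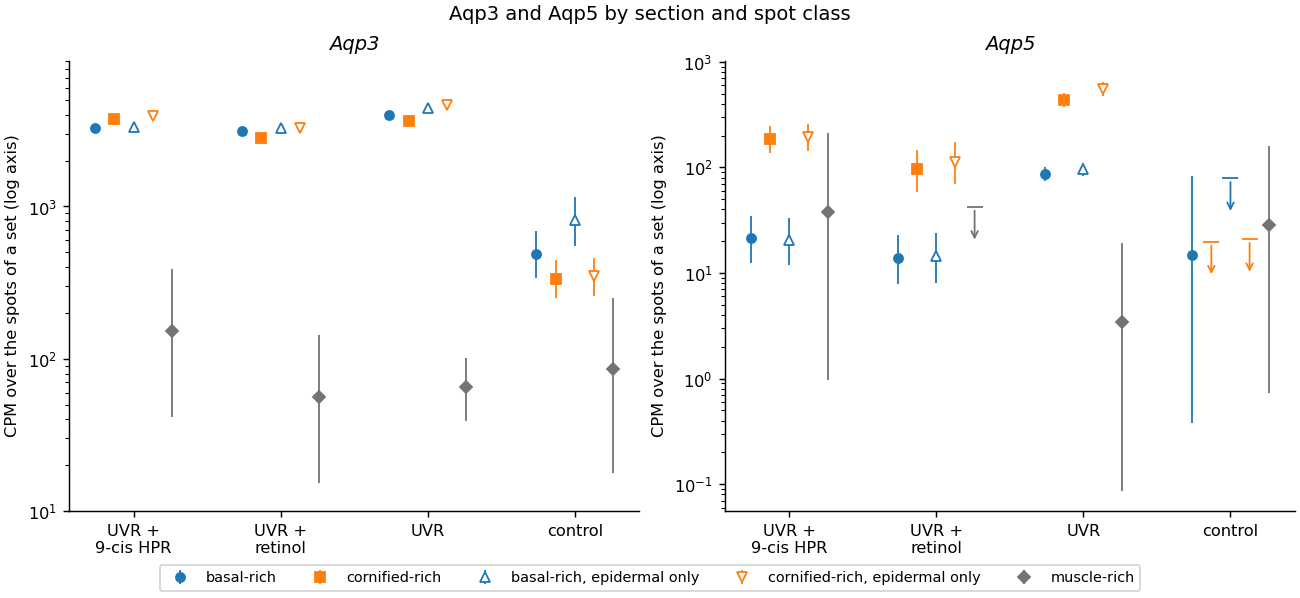
Level of Aqp3 (left) and Aqp5 (right) in CPM on a log axis, by section and set of spots. Bars are exact 95% counting intervals, and arrows mark sets with 0 UMIs, drawn at a floor of 3 counts. Aqp3 lay between 2795 and 3965 CPM in both classes of the 3 exposed sections and at 491 and 336 CPM in control, while Aqp5 was lower in basal-rich than in cornified-rich spots of each exposed section.

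Aqp3 was abundant in the epidermis of every UVR-exposed section and low in the control section, and it was spread over both layers. Over the whole section it measured 2965 CPM with 9-cis HPR (95% interval 2870 to 3062), 2855 with retinol (2768 to 2944) and 3794 with UVR (3719 to 3870), against 374 in control (311 to 447). The order was UVR, then 9-cis HPR and retinol, whose intervals overlap, then control. The exposed sections lay close together and the control section well below them.

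In basal-rich spots Aqp3 stood at 3265 CPM with 9-cis HPR, 3143 with retinol and 3965 with UVR, against 491 CPM in control. In cornified-rich spots it stood at 3737, 2795 and 3662 CPM, against 336 CPM in control. The control values rest on 33 and 51 UMIs. No spot of the control classes held more than 6 Aqp3 UMIs, where the richest spots held 110 with 9-cis HPR, 121 with retinol and 249 with UVR. Those counts are not scaled for depth. Scaled, the highest class spot had 7416, 10578 and 11675 CPM, against 2807 in control. Among all kept spots, shallow ones included, the highest value was that of control, 13393 CPM, against 11834, 12605 and 11675.

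Most epidermal spots of the exposed sections held Aqp3, also at equal depth. Thinned to 1000 UMIs, 80.6% of epidermal basal-rich spots would hold an Aqp3 UMI with 9-cis HPR, 73.8% with retinol and 83.1% with UVR, against 48.8% in control. The unthinned shares were 90.9%, 86.0%, 90.7% and 60%. In epidermal cornified-rich spots the thinned shares were 94.7%, 91.7% and 97.5%, against 31.4% in control, and the unthinned ones 98.1%, 97.6%, 100% and 50.0%. In muscle-rich spots, where keratinocyte genes should be low, the share was 13.6%, 8.33%, 14.3% and 23.1%, at median depths of 1161, 1346, 2279 and 2772 UMIs, and the Aqp3 level 152, 56.2, 65.2 and 86.4 CPM. The epidermal levels of Aqp3, control included, lay above that.

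Aqp5 gave fewer counts, concentrated in cornified-rich spots, and was nearly absent from the control section. Over the whole section it measured 59.2 CPM with 9-cis HPR (46.5 to 74.3), 25.4 with retinol (17.8 to 35.2) and 133 with UVR (119.5 to 148), against 9.20 in control (1.90 to 26.9). Those levels stand for 74, 36 and 341 UMIs, against 3 in control. The order was UVR, 9-cis HPR, retinol, control. The intervals of retinol and control overlap, and no other neighbours do.

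In basal-rich spots Aqp5 measured 21.5 CPM with 9-cis HPR (17 UMIs), 13.9 with retinol (15 UMIs) and 86.5 with UVR (180 UMIs), against 14.9 CPM on a single UMI in control. In cornified-rich spots it measured 185, 95.6 and 436 CPM, on 50, 20 and 158 UMIs. The control section had 0 Aqp5 UMIs among its 151737 cornified-rich UMIs, for which the exact upper limit is 24.3 CPM. Where Aqp5 was counted at all in the control classes, it was 1 UMI in 1 spot that also counted as muscle-rich.

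At equal depth most single spots would miss Aqp5. Of epidermal basal-rich spots, 7.32% held an Aqp5 UMI with 9-cis HPR, 7.26% with retinol and 22.7% with UVR, against 0 of 20 in control, at their own depths. Thinned to 1000 UMIs, 20.7% of epidermal cornified-rich spots would hold one with 9-cis HPR, 10.9% with retinol and 44.8% with UVR, against 0% in control. Unthinned, the shares were 52.8%, 34.1% and 97.1%, against 0 of 62 spots in control. In muscle-rich spots Aqp5 was seen in 1 of 22 spots with 9-cis HPR, 0 of 48 with retinol, 1 of 119 with UVR and 1 of 13 in control.

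Position in the tissue was measured independently of the keratin classes, by counting spots inward from the upper image edge of each section along strips of 2 grid columns. That edge was the cornified side: at its outermost spot Lor measured 62822 CPM with 9-cis HPR, 30787 with retinol, 44071 with UVR and 91333 in control.

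**Figure D2:**
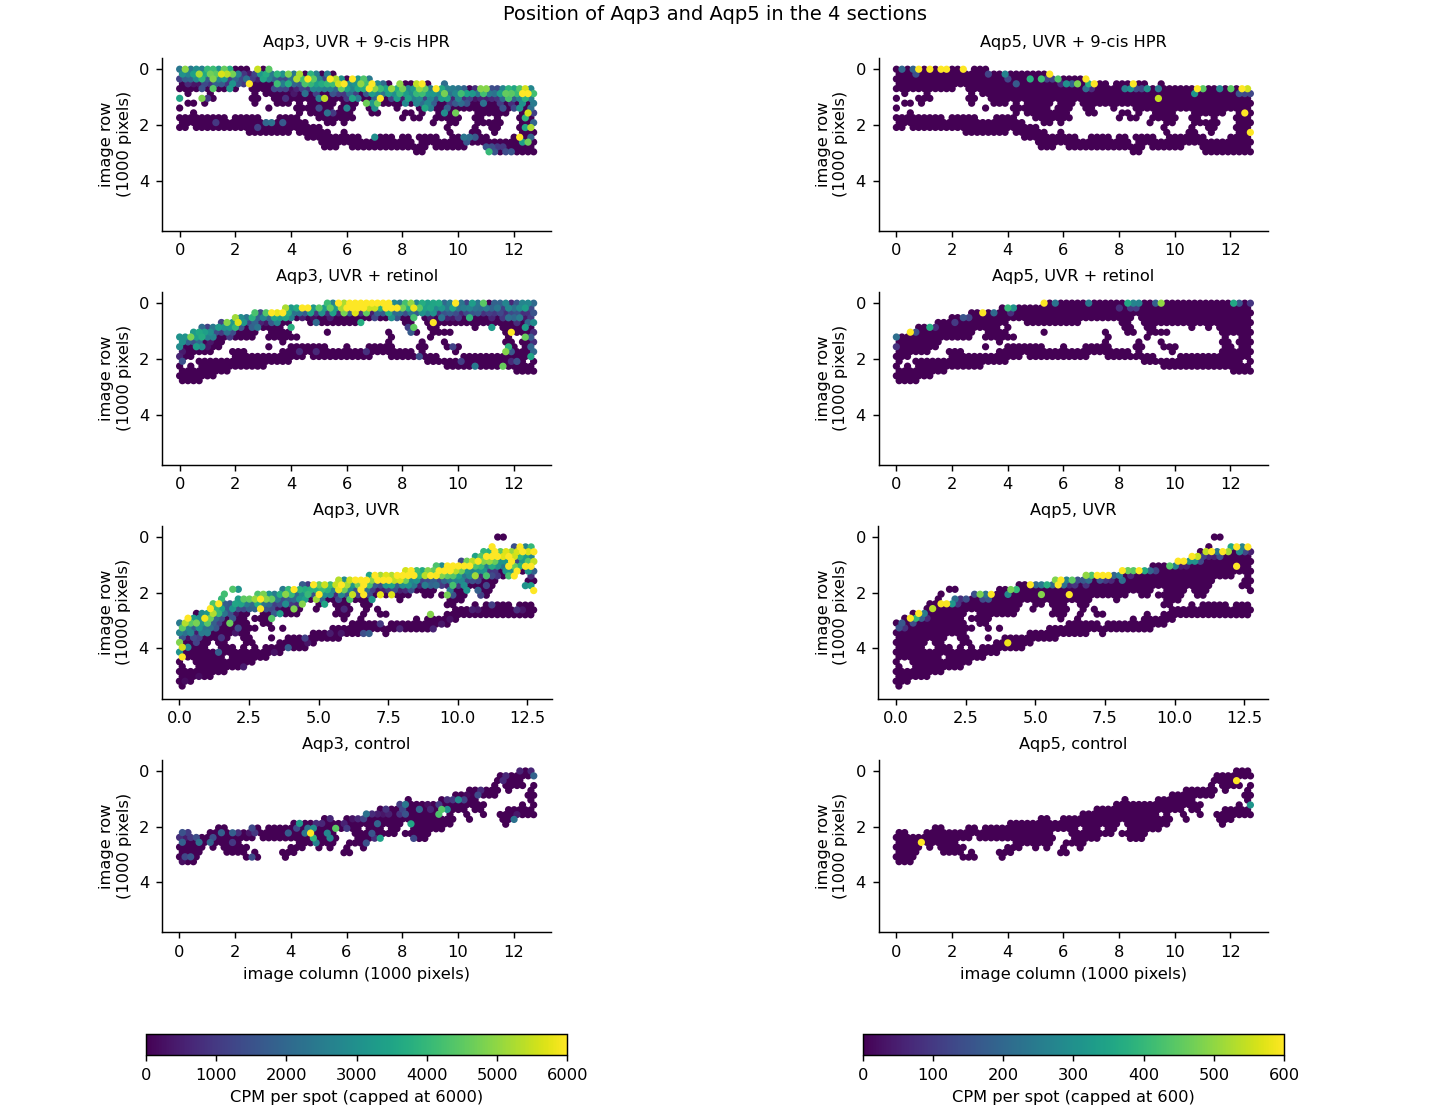
Each kept spot of the 4 sections at its place in the image, with sections in rows. Colour is Aqp3 (left column, capped at 6000 CPM) or Aqp5 (right column, capped at 600 CPM). Aqp3 filled a band along the upper edge of the exposed sections, Aqp5 its outer rim, and the control section showed little of either.

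Aqp5 dropped steeply inward. With UVR it measured 401 CPM at the outermost spot, 176 at the next, then 93.5, 34.3, 4.66 at spots 5 to 6 and 2.25 from spot 7 inward. The values of 4.66 and 2.25 CPM rest on 1 UMI each. With 9-cis HPR the outermost spots had 287 CPM and the next 76.8. Deeper spots had between 6.17 and 17.2 CPM, on 1 to 3 UMIs a step. With retinol the outermost spots had 96.1 CPM, the next 11.4 on 7 UMIs, the next 4.24 on 1 UMI, and spots from the fourth inward had 0 UMIs. The 3 control UMIs lay at spots 2, 3 and 7 or deeper.

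Aqp3 reached deeper. With UVR it held 5200, 5392, 4472, 3309 and 2552 CPM over the same steps and 255 CPM from spot 7 inward. With 9-cis HPR it held 3396, 4253, 3137, 1609 and 790 CPM and then 253. With retinol it held 4412, 3696, 1689, 569 and 486 CPM and then 187. The control section stood at 444, 501, 458, 152 and 206 CPM and then 147. With 9-cis HPR the Aqp3 level was higher at the second spot than at the outermost one, where Aqp5 peaked, and with UVR the counting intervals of those spots overlap.

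The outer 2 spots of the strips held 91.9% of all Aqp5 UMIs with 9-cis HPR, 97.2% with retinol and 82.7% with UVR. They held 64.0%, 87.8% and 59.6% of the Aqp3 UMIs, and 46.4%, 63.8% and 42.5% of all UMIs. In control the outer 2 spots held 74.6% of the Aqp3 UMIs, 59.6% of all UMIs and 1 of 3 Aqp5 UMIs. In each exposed section Aqp5 lay further out than Aqp3, and Aqp3 further out than the average UMI.

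The upper edge of the retinol section ran straight along the grid. In 45 of its 64 strips the first spot lay on the outermost 2 grid rows of the section, against 28 with 9-cis HPR, 6 with UVR and 7 in control. The median UMIs of that first spot, spots too shallow to be kept included, were 4126 with retinol, against 634, 1613 and 1524. Over the kept first spots, which gave the edge levels, the median was 4126 with retinol and 1289 with 9-cis HPR. It was 6936 with UVR, deeper than with retinol, and 1540.5 in control. Lor at the edge was also lowest with retinol, as given above. Whether tissue beyond that edge lay outside the deposited spots was not tested, and the lower Aqp5 of the retinol section stands beside these values.

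**Figure D3:**
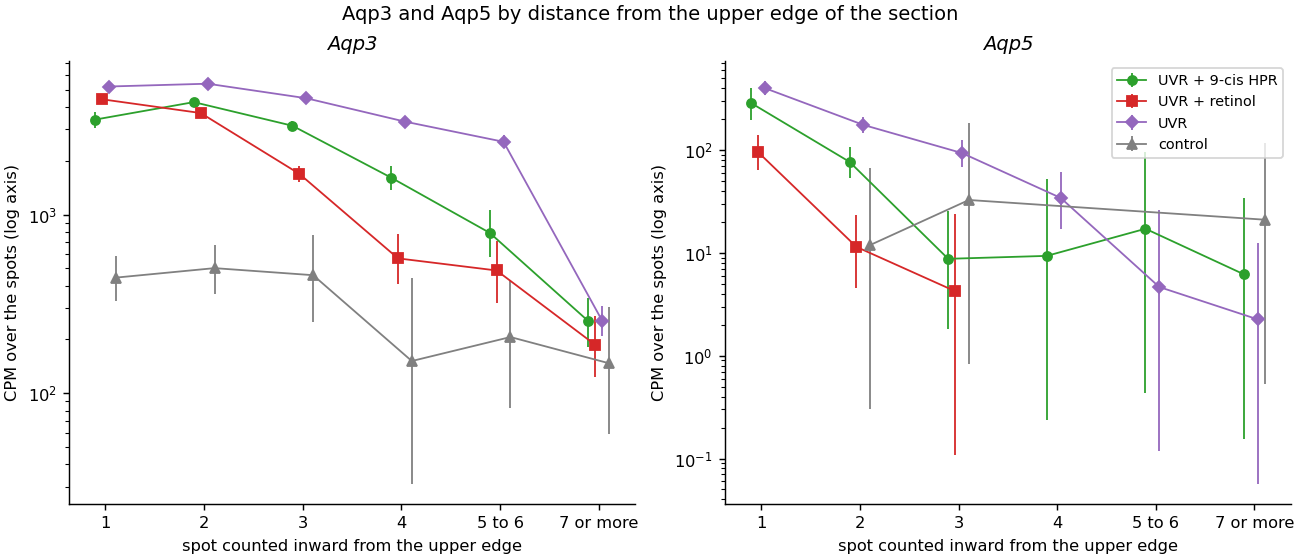
Level of Aqp3 (left) and Aqp5 (right) in CPM by the number of spots inward from the upper image edge, 1 line per section, with exact 95% counting intervals. Aqp5 was highest at the outermost spot of each exposed section (287 CPM with 9-cis HPR, 96.1 with retinol, 401 with UVR), while Aqp3 was still at 3137, 1689 and 4472 CPM at the third spot of those sections.

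Within the keratin classes the same contrast was seen as basal-rich over cornified-rich ratios inside each section, where both classes share a library. Aqp5 was 8.62-fold lower in basal-rich spots with 9-cis HPR (95% interval 4.89 to 15.9), 6.86-fold lower with retinol (3.34 to 14.4) and 5.04-fold lower with UVR (4.04 to 6.27). On both image sides of each exposed section it was lower in basal-rich spots. Of the genes with at least 100 UMIs over both classes, 7.48%, 7.17% and 6.71% were at least 2-fold lower in basal-rich spots of those sections. No ratio can be given for control, with 1 and 0 UMIs.

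With all class spots Aqp3 differed little between the classes of the exposed sections, but the size and sign of that difference depended on the setting. Basal-rich over cornified-rich, its ratio was 0.874 with 9-cis HPR (0.812 to 0.941), 1.12 with retinol (1.03 to 1.23), 1.08 with UVR (1.02 to 1.15) and 1.46 in control (0.913 to 2.31). The median gene had a ratio of 1.33 with 9-cis HPR, 1.31 with retinol, 1.35 with UVR and 0.835 in control. In epidermal spots alone the ratios were 0.849, 0.990, 0.949 and 2.33, so retinol and UVR changed side. In epidermal spots of 1000 to under 3000 UMIs they were 0.425, 0.488, 0.596 and 1.84. No direction is given for Aqp3 between the layers.

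Set against Aqp3 in the same spots, Aqp5 was enriched in the cornified class, a measure that does not depend on the total count. There were 6.59 Aqp5 UMIs per 1000 Aqp3 UMIs in basal-rich spots with 9-cis HPR, 4.43 with retinol and 21.8 with UVR. In cornified-rich spots there were 49.6, 34.2 and 119. The odds of Aqp5 to Aqp3 were higher in cornified-rich than in basal-rich spots, 7.53-fold with 9-cis HPR (4.24 to 14.0), 7.71-fold with retinol (3.73 to 16.3) and 5.45-fold with UVR (4.34 to 6.84). In control there was 1 Aqp5 UMI beside 33 of Aqp3 in basal-rich spots and 0 beside 51 in cornified-rich spots, too few for a direction.

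Along the share of Krt5 plus Krt14 among the 3 keratinocyte genes the genes behaved differently again. In spots over 90% basal, Aqp5 stood at 5.73 CPM with 9-cis HPR, 3.68 with retinol and 28.4 with UVR. In spots of 30 to 50% basal it stood at 118, 110 and 557 CPM. Aqp3 peaked in between, with 4640 and 4612 CPM at 50 to 70% basal in 9-cis HPR and retinol and 5628 CPM at 70 to 90% in UVR. In spots over 90% basal it stood at 2477, 2814 and 3737 CPM. In control no bin held an Aqp5 UMI. At the edge of the class rule, 41 spots of 50 to 60% basal share over all sections had 4207 CPM Aqp3, and 69 spots of 40 to 50% had 3507. Aqp5 in those steps stood at 239 and 475 CPM with UVR, on 33 and 97 UMIs. On few UMIs it stood at 127 and 23.7 CPM with 9-cis HPR (7 and 1 UMIs) and at 130 and 29.1 CPM with retinol (7 and 2 UMIs), so there the order was the opposite one. At the depth limit, 122 spots just above 1000 UMIs had 816 CPM Aqp3 and 6 Aqp5 UMIs, and 151 spots just below it had 488 CPM and 1 UMI.

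**Figure D4:**
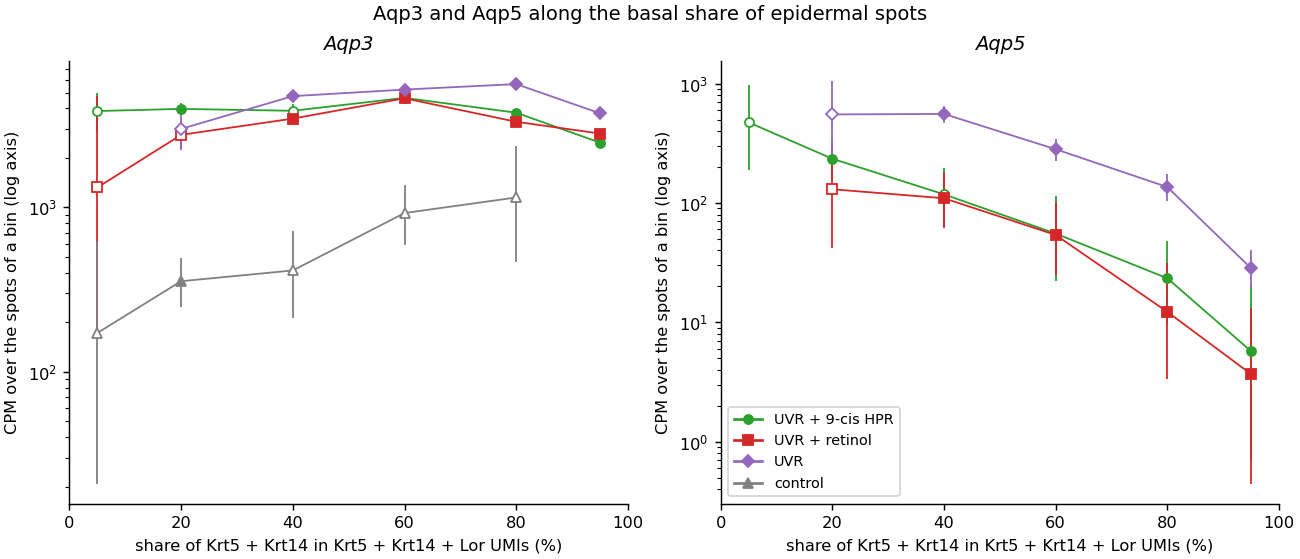
Aqp3 (left) and Aqp5 (right) in CPM by the share of Krt5 plus Krt14 among Krt5, Krt14 and Lor UMIs in epidermal spots of at least 1000 UMIs, 1 line per section, with exact 95% counting intervals; open markers are bins of under 20 spots. In the exposed sections Aqp5 was lower at each step from 30% basal share upwards, reaching 5.73, 3.68 and 28.4 CPM above 90%, and Aqp3 was highest between 50 and 90%.

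Nearly every spot with Aqp5 also held Aqp3. Of the class spots with an Aqp5 UMI, 40 of 41 with 9-cis HPR, 27 of 27 with retinol and 90 of 91 with UVR also held Aqp3, where 84.6%, 73.6% and 68.7% of all class spots did. Of the 204, 198 and 276 spots with Aqp3, 19.6%, 13.6% and 32.6% held Aqp5, shares that the low number of Aqp5 spots holds down. Spots with Aqp5 were deep: their median was 5994, 6414 and 12228 UMIs, against 2961, 2872 and 2734 UMIs for the other class spots.

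UVR over control, the comparison of exposed skin with skin labelled normal, gave the widest Aqp3 gap of the 4 section comparisons given here, in each set. Treated sections over control are not among them. In cornified-rich spots the Aqp3 level with 9-cis HPR, 3737 CPM, was slightly above that with UVR, 3662 CPM, with overlapping intervals. In basal-rich spots Aqp3 was 8.08-fold higher with UVR (5.75 to 11.7) and in cornified-rich spots 10.9-fold higher (8.24 to 14.7). In epidermal spots it was 5.43-fold higher (3.82 to 8.0) in the basal-rich class and 13.4-fold higher in the cornified-rich class, where 16.3% and 17.5% of genes were at least 2-fold higher. Over the whole section the ratio lay between 6.81 and 14.2 in the 4 pairings of a left or right UVR side with a control side. Of 2510 genes, 12.4% were at least 2-fold higher with UVR, 20% of 2083 in basal-rich and 21.5% of 671 in cornified-rich spots. Aqp3 stood at percentile 99.5, 99.3 and 98.4 of those genes.

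Depth went along with part of the size. In epidermal spots of 1000 to under 3000 UMIs, Aqp3 was 4.84-fold higher with UVR over the section (3.65 to 6.53), 2.98-fold in basal-rich spots (1.90 to 4.94) and 9.19-fold in cornified-rich spots. The direction was the same in each. Skeletal muscle markers differed too, summing to 26880 CPM in basal-rich UVR spots and 127533 CPM in basal-rich control spots. In cornified-rich spots they summed to 58354 CPM with UVR and 20140 in control. In epidermal basal-rich spots muscle genes summed to 682 CPM with UVR and 1887 in control, and sebaceous gland genes to 107 with UVR and 1678 in control. Macrophage and dendritic genes summed there to 71.3 CPM with UVR and 603 in control, and fibroblast genes to 262 with UVR and 1022 in control. The Aqp3 ratio in those spots is the 5.43 given above, and the part of these cells in it was not tested.

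Aqp5 was at least 22.0-fold higher with UVR in cornified-rich spots, and at least 26.6-fold higher in epidermal cornified-rich spots, both against a floor of 3 counts over the control set. The exact lower limits of the ratio against the 0 control UMIs, which use no floor, were 17.7 and 21.4. At matched depth the bound against the floor was 19.3-fold, and the exact lower limit was 13.2. In basal-rich spots the ratio was 5.82, with an interval of 1.03 to 231 that rests on the single control UMI, from a muscle-rich spot. In epidermal basal-rich spots Aqp5 stood at 95.9 CPM with UVR, and control had 0 of 38146 UMIs with an upper limit of 96.7 CPM, so no direction is given there.

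Genes of sweat and simple glands gave few counts. Of 8 listed gland markers 7 were on the panel, summing to 35.7 CPM or less in the epidermal classes of all sections. The highest sum, on 37 UMIs, was in epidermal basal-rich spots with retinol, above the 14.5 CPM of Aqp5 there. In epidermal cornified-rich spots they summed to 3.89 CPM with 9-cis HPR, 17.0 with retinol and 14.1 with UVR, against 34.8 in control. Krt8, Krt19, Cftr, Foxi1 and Chrm3 were at 0 in each of those classes. Stress keratins are made by keratinocytes after injury. In epidermal cornified-rich spots Krt6a, Krt6b, Krt16 and Krt17 together measured 12558 CPM with 9-cis HPR, 9081 with retinol, 44963 with UVR and 654 in control. That is the order of sections of Aqp5, and also of Aqp3, at 3920, 3297, 4652 and 348 CPM there. In epidermal basal-rich spots stress keratins measured 6883, 5618, 24393 and 2910 CPM. In the exposed sections stress keratins thus differed less between the classes than Aqp5. Their part in the Aqp5 result was not tested.

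**Figure D5:**
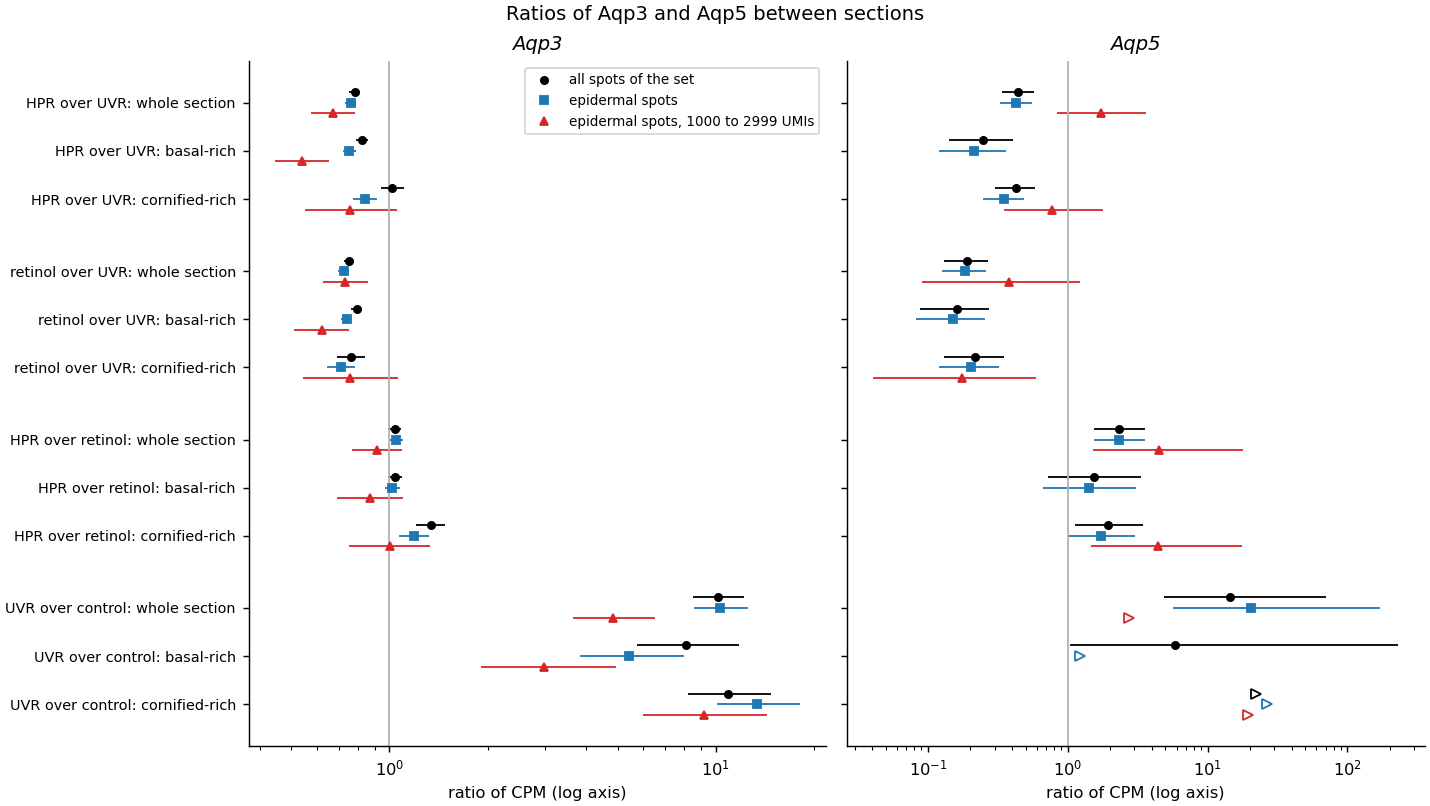
Ratios of Aqp3 (left) and Aqp5 (right) between sections on a log axis, for the whole section and both classes, with exact 95% counting intervals; open triangles are lower bounds against a floor of 3 counts. UVR over control lay at 5.82-fold or more in every set, and Aqp5 in the treated sections lay below UVR in all 3 sets, by 2.25 to 6.21 fold.

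Retinol over UVR, the comparison of treated with untreated exposed skin, separated the genes. Aqp5 was 5.24-fold lower with retinol over the whole section (3.71 to 7.61), 6.21-fold lower in basal-rich spots (3.67 to 11.3) and 4.56-fold lower in cornified-rich spots (2.85 to 7.67). It was lower in all 4 pairings of sides, with ratios of 0.152 to 0.243. Of 2932 genes, 9.11% were at least 2-fold lower, 12.3% in basal-rich and 9.25% in cornified-rich spots, and Aqp5 stood at percentile 0.443. At matched depth, on 4 and 14 UMIs, the ratio was 0.382 with an interval of 0.0916 to 1.22 that includes 1. The lower edge values of the retinol section given above touch this comparison. Other cells differed too. In basal-rich spots 8 muscle genes had a median log2 ratio of -1.95 with retinol over UVR. In epidermal basal-rich spots the median was -1.49 over 3 muscle genes and 1.09 over 3 fibroblast genes, and 1 macrophage and dendritic gene had 1.66. The part of these cells in the Aqp5 result was not tested.

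Aqp3 differed less. Its ratio of retinol over UVR was 0.753 over the section (0.725 to 0.781), 0.793 in basal-rich spots (0.761 to 0.825) and 0.763 in cornified-rich spots (0.691 to 0.842). The section-wide gap is smaller than that between the sides of UVR, 3009 CPM on the left and 4470 CPM on the right. The retinol level of 2855 CPM lay below both. In 3 of 4 pairings of sides Aqp3 was lower with retinol, over ratios of 0.577 to 1.04.

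9-cis HPR over UVR gave a smaller gap for Aqp5 that depended on depth. Aqp5 was 2.25-fold lower with 9-cis HPR over the section (1.75 to 2.94), 4.02-fold lower in basal-rich spots (2.44 to 7.06) and 2.35-fold lower in cornified-rich spots (1.70 to 3.30). It was lower in all 4 pairings of sides, and stood at percentile 6.33 of 2813 genes, of which 9.21% were at least 2-fold lower. In basal-rich and in cornified-rich spots 14.4% of genes were. In epidermal spots of 1000 to under 3000 UMIs it was not lower: the ratio was 1.72 on 21 and 14 UMIs, with an interval of 0.833 to 3.65. In the cornified-rich spots among them it was 0.772 (0.353 to 1.78). With every spot thinned to 1000 UMIs the ratio was 0.854 over the section and 0.454 in basal-rich spots. Most UVR spots that held Aqp5 were deeper than that window. Other cells differed too. In basal-rich spots muscle genes summed to 2843 CPM with 9-cis HPR and 26880 with UVR. In epidermal basal-rich spots muscle genes summed to 263 CPM with 9-cis HPR and 682 with UVR, fibroblast genes to 1211 with 9-cis HPR and 262 with UVR, and macrophage and dendritic genes to 262 with 9-cis HPR and 71.3 with UVR. Their part in the Aqp5 result was not tested.

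Aqp3 had a ratio of 9-cis HPR over UVR of 0.782 over the section (0.752 to 0.812) and 0.823 in basal-rich spots (0.788 to 0.861). In cornified-rich spots the ratio was 1.02 (0.939 to 1.11), and in the epidermal ones 0.843. Pairings of sides gave 0.626 to 1.05 over the section. The section-wide gap was again smaller than that between the UVR sides, 3009 and 4470 CPM. The 9-cis HPR level of 2965 CPM lay below both.

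9-cis HPR and retinol shared a capture area, but their doses differed, 0.03% and 0.1%. Aqp5 was 2.33-fold higher with 9-cis HPR over the section (1.54 to 3.57) and 1.94-fold higher in cornified-rich spots (1.13 to 3.44), and in basal-rich spots the interval of 0.725 to 3.32 includes 1. It was higher in all 4 pairings of sides, by 1.78 to 3.06 fold. Of 2231 genes, 0.852% were at least 2-fold higher, and Aqp5 stood at percentile 99.7. The retinol section's straight upper edge stands beside this ratio as well. Aqp3 had ratios of 1.04 over the section (0.993 to 1.09) and 1.04 in basal-rich spots (0.987 to 1.09), and 1.34 in cornified-rich spots (1.21 to 1.48).

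Of the other aquaporins, 3 had at least 20 UMIs over all kept spots. Aqp1, the water channel of vessel endothelium and red cells, had 134 UMIs. Its whole-section level was 32.8 CPM with 9-cis HPR, 27.6 with retinol and 13.3 with UVR, against 61.3 in control. In muscle-rich spots it stood at 114, 70.3, 41.2 and 28.8 CPM in the same order. Those levels rest on 3, 5, 12 and 1 UMIs with overlapping intervals, too few for a ranking. Control, lowest for Aqp3 and Aqp5, had the highest Aqp1 value over the section, on 20 UMIs. Its interval of 37.5 to 94.7 CPM overlaps those of 9-cis HPR (23.5 to 44.5) and retinol (19.6 to 37.7). Aqp9, an aquaglyceroporin of liver and leukocytes, had 42 UMIs, and Aqp7, that of fat cells, had 29. Aqp2, Aqp4 and Aqp11 had 1 or 2 UMIs, and Mip, Aqp6, Aqp8 and Aqp12 had 0.

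Genes of glycerol and triglyceride metabolism, which make or use the solute AQP3 carries, were mostly too sparse to compare. Of 19 listed genes, 7 could be compared between UVR and control in basal-rich spots: 1 passed 2-fold upward and 2 passed it downward, where 20% and 11.1% of all genes did, with a median log2 ratio of -0.23 beside 0.26 over all genes tested. Dgat2, an enzyme of the last step of triglyceride synthesis, was 2.24-fold higher with UVR (1.28 to 4.35). Mgll, the lipase that frees glycerol from monoglycerides, was 13.2-fold lower, at 42.8 CPM with UVR against 565 in control. Lpin1, which makes diacylglycerol, was 3.40-fold lower. In epidermal basal-rich spots, where muscle is lower, 0 of 6 passed upward and 1 of 6 downward, Mgll by 21.5-fold, where 16.3% and 9.59% of genes did.

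Of 9 such genes, 3 passed 2-fold downward and none upward with retinol over UVR in basal-rich spots. The background there is 12.3% lower and 5.15% higher. Lpin1 was 3.14-fold and Agpat2, an acyltransferase of glycerolipid synthesis, 2.56-fold lower, while Mgll had a ratio of 1.89 and Dgat1 of 1.24. With 9-cis HPR over UVR, 3 of 7 were at least 2-fold lower, where 14.4% of genes were: Mgll 2.42-fold, Lpin1 2.16-fold and Agpat3 2.10-fold. Dgat1 had a ratio of 1.65, and 3.59% of genes were at least 2-fold higher. Between 9-cis HPR and retinol, 1 of 6 was lower, Mgll by 4.56-fold, where 3.17% of genes were. In epidermal basal-rich spots 3 of 7 were lower with retinol over UVR, 1 of 5 with 9-cis HPR over UVR (Agpat3, 2.14-fold) and 0 of 5 with 9-cis HPR over retinol, where 9.43%, 10.2% and 1.91% of genes were.

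Of 19 genes of ion transport and cell volume, 3 could be compared between UVR and control in basal-rich spots. Of these, 1 passed 2-fold upward and 1 downward, where 20% and 11.1% of all genes did. Atp1b1, a subunit of the sodium pump, was 3.95-fold lower with UVR, and 7.57-fold lower in epidermal basal-rich spots. Nfat5, the regulator of the response to high osmolarity, had a ratio of 3.39 on a single control UMI. None of 5 passed 2-fold with retinol over UVR in basal-rich spots. With 9-cis HPR over UVR 1 of 4 did, Atp1b1 at 2.26-fold lower, where 14.4% of genes were, and in epidermal basal-rich spots its ratio was 0.857. Of 12 reported regulators of Aqp3, 2 to 4 could be compared in basal-rich spots and none passed 2-fold there, where 0.778% to 20% of genes passed it upward and 3.17% to 14.4% downward. Rarg, the retinoic acid receptor of skin, had a ratio of 0.951 with UVR over control (0.711 to 1.30). It had 1.74 with retinol over UVR (1.61 to 1.88) and 1.72 with 9-cis HPR over UVR (1.58 to 1.87). Outside that class Rarg had a ratio of 2.12 with retinol over UVR in cornified-rich spots (1.78 to 2.51), the one list gene compared there. In cornified-rich spots the one list gene compared had a log2 ratio of -0.68 with UVR over control and 0.88 with 9-cis HPR over UVR. Rxra, the partner of retinoic acid receptors, had 0.487 with UVR over control over the whole section (0.319 to 0.767).

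The genes whose levels ran most like Aqp3 over the 8 profiles of section and class were Gpx1, a peroxide-reducing enzyme (Pearson r 0.985), Rab5c of early endosomes (0.978), Fabp5, the epidermal fatty acid carrier (0.968), Rbp2, a retinol carrier (0.961), and Sprr1b of the cornified envelope (0.956). Those most like Aqp5 were Epas1, a hypoxia-response factor (0.983), Dhx34, an RNA helicase (0.976), Sprr1a of the cornified envelope (0.927), Trex2, an exonuclease of upper keratinocytes (0.919), and Cldn4 of tight junctions (0.900). Gpx1 stood at 2307, 2597 and 2980 CPM in basal-rich spots of 9-cis HPR, retinol and UVR, against 1175 CPM in control. Dhx34 stood at 1242, 960 and 1784 CPM in their cornified-rich spots, against 171 CPM in control. Aqp3 and Aqp5 had an r of 0.70 with each other, rank 228 for Aqp3 and 106 for Aqp5 among 2180 genes. These correlations are over log2(CPM + 10), and the profiles share libraries and depth.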

How the data were processed

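The deposited files hold UMI counts per gene and spot. Frozen skin sections went through hybridised probe pairs and a library kit meant for formalin-fixed samples, per the labels' protocols; the submitters' processing notes name Space Ranger 2.0.0, Seurat 4.1.0 and mm10. Each of 2 areas carries 2 sections, named upper and lower in the labels, and lower was read as the larger image row; the spot grid runs the other way. The areas share 430 spot barcodes, which are grid places of different libraries. All deposited spots lay over tissue.

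Spots of at least 200 UMIs were kept (1000 for the classes). UMIs were summed over spots and divided by the total to give CPM. Ratios have exact (Clopper-Pearson) 95% intervals of the binomial split, checked on simulated data. A set at 0 UMIs was given a floor of 3 counts, and no fold is given where both sets are at or under it. Gene percentages use genes of at least 100 UMIs over both sets and a fold of 2. With 1 section per group there is no test, and spots are not replicates. Thinning gives the expected share at 1000 UMIs, leaving out shallower spots. Promoters and positions were matched by symbol (2 of 2). Members and lists were chosen with earlier results of these data known. The genes named are Aqp3, Aqp5, aquaporins of at least 20 UMIs, up to 2 genes at each end of each pathway list in basal-rich spots, and the 5 genes of at least 200 UMIs most like each member; not every list end is printed. Alternatives covered spot and gene minima, scaling, pseudocount, thinning, epidermal spots, class margins and the grid orientation. Python 3.11.15, numpy 2.4.6, scipy 1.17.1, pandas 2.3.3 and matplotlib 3.10.9 were used.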

Additional observations from a re-analysis of the deposited data

Results flagged for a closer look

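The basal-rich over cornified-rich ratio of Aqp3 pointed different ways in sections of exposed skin. It was below 1 with 9-cis HPR, at 0.874, and above 1 with retinol, at 1.12. It was also above 1 with UVR, at 1.08. The difference between sections was not tested, and in epidermal spots alone all 3 ratios lay below 1. On the 2 image sides the ratio was 0.862 and 0.893 with 9-cis HPR, 0.984 and 1.28 with retinol, and 1.02 and 1.11 with UVR.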

How the results depend on the processing

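No paired analysis was possible because each group has 1 section, so no replicate could be left out either. Upper and lower were read from the image row. Reading the spot grid instead exchanges the groups of each area and turns most ratios: UVR over control became 0.0986, 0.124 and 0.0918 for Aqp3 (whole section, basal-rich, cornified-rich) and 0.0690, 0.172 and 0.0454 for Aqp5. Retinol over UVR became 7.93, 6.65 and 11.1 for Aqp3 and 6.44, 1.45 and 9.37 for Aqp5, and 9-cis HPR over UVR became 7.63, 6.40 and 8.32 for Aqp3 and 2.77, 0.937 and 4.83 for Aqp5. 9-cis HPR over retinol became 0.963, 0.963 and 0.748 for Aqp3 and 0.430, 0.648 and 0.516 for Aqp5. The pseudocount and a total without Krt5, Krt14 and Lor left all 31 results within their intervals.

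Depth moved values within the groups as read. With spots thinned to 1000 UMIs, Aqp3 stood at 5.49 (whole) and 4.36 (basal-rich) for UVR over control, 0.917 and 0.922 for retinol over UVR, 1.03 and 0.940 for 9-cis HPR over UVR, 1.12 (whole) for 9-cis HPR over retinol and 0.762 for basal-rich over cornified-rich with 9-cis HPR. Aqp5 then stood at 0.291 (whole, retinol over UVR), 0.854 and 0.454 (whole and basal-rich, 9-cis HPR over UVR) and 0.134 (basal-rich over cornified-rich, UVR). In epidermal spots of 1000 to under 3000 UMIs, a setting chosen after seeing the data, Aqp3 stood at 4.84 and 2.98 for UVR over control, 0.620 (basal-rich) for retinol over UVR, 0.671 and 0.540 for 9-cis HPR over UVR, 0.915 and 0.871 for 9-cis HPR over retinol, and 0.425 (9-cis HPR), 0.488 (retinol) and 0.596 (UVR) for basal-rich over cornified-rich. Whole-section Aqp5 there was at least 2.77 for UVR over control, 0.382 for retinol over UVR, 1.72 for 9-cis HPR over UVR and 4.49 for 9-cis HPR over retinol. Its basal-rich over cornified-rich ratio was 0.0150 with 9-cis HPR and 0.0256 with UVR, both on basal-rich spots near 0 UMIs. The 4 ratios of basal-rich Aqp5 between sections could not be computed at that depth, nor that of cornified-rich Aqp5 for UVR over control when scaled by the median gene.

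In epidermal spots of any depth, Aqp3 stood at 5.43 (basal-rich, UVR over control), 0.724 and 0.739 (retinol over UVR), 0.754 (basal-rich, 9-cis HPR over UVR), and 0.990 (retinol), 0.949 (UVR) and 2.33 (control) for basal-rich over cornified-rich. Scaled by the median gene, a setting also chosen after seeing the data, the last ratio was 0.740 with 9-cis HPR, 0.979 with retinol and 0.986 with UVR, and with a 2-fold margin between classes 0.793, 1.28, 2.61 and 0.682 (control), where Aqp5 had 0.0568 (9-cis HPR) and 0.0550 (retinol). With a minimum of 1000 UMIs for the whole section, Aqp3 stood at 0.787 (retinol over UVR), 0.864 (9-cis HPR over UVR) and 1.10 (9-cis HPR over retinol); with classes weighted equally the last pair was 0.918 and 1.18; with a minimum of 500 UMIs basal-rich 9-cis HPR over UVR was 0.787. Genes at least 2-fold higher and lower over the section, 312 and 191, 124 and 267, 96 and 259, and 19 and 41 for UVR over control, retinol over UVR, 9-cis HPR over UVR and 9-cis HPR over retinol, became 760 and 1026, 407 and 858, 378 and 920, and 201 and 241 with a gene minimum of 20 UMIs, and 98 and 36, 51 and 71, 30 and 73, and 1 and 10 with 500. Median-of-ratios scaling gave 32 and 27 for 9-cis HPR over retinol. The cause of these moves was not tested.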
